A study of Apostichopus japonicus with 12 samples.

Results

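Immediate early and stress transcription factors were followed in intestine from Apostichopus japonicus, a sea cucumber. Gene models were taken whose Swiss-Prot name contained C/EBP (CCAAT/enhancer-binding protein), AP-1, Jun, c-Fos, Fos-related antigen, early growth response protein, ATF-3, ATF-4 or NF-E2-related factor. This found 5 of 26461 models, namely C/EBP beta, C/EBP gamma, C/EBP zeta, Jun and EGR1. Gene names are those of the best Swiss-Prot match, from other species. The names for c-Fos, Fos-related antigen, ATF-3, ATF-4 and NF-E2-related factor matched 0 models, so a Fos relative and an NFE2L1 model that carry other names are described below as relatives. RNA was sequenced in 12 libraries, 3 in each of 4 groups of intestine taken after 6 h of treatment. Control animals were kept at 18 °C. The group named high temperature was held at 26 °C and 7 mg/L of dissolved oxygen, the one named low oxygen at 18 °C and 3 mg/L, and the one named combined at 26 °C and 3 mg/L. The submitters' text gives 3 mg/L for the control too, so the oxygen level of the control is unsettled. Every contrast that uses the control as the arm at 18 °C and higher oxygen, which are all but combined against high temperature and combined against low oxygen, therefore holds only for the groups as named. RNA was extracted per individual, but tanks are not described, so p-values cover only the spread between these samples, part of which may be technical.

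Immediate early genes are transcription factor genes that cells switch on soon after a stimulus, through proteins that are already present. Jun is a basic leucine zipper (bZIP) protein that pairs with Fos or ATF proteins to form AP-1, and in vertebrates it is switched on through the JNK branch of the MAP kinase cascade. EGR1 is a zinc finger protein induced by growth factors and stress through ERK signalling and serum response factor. C/EBP proteins are bZIP factors too. In mammals C/EBP beta rises in the acute phase response and in cell stress, and C/EBP gamma lacks an activation domain and acts by pairing with other bZIP proteins such as ATF4. C/EBP zeta shares only the name; it is a nucleolar protein of the CBF/Mak21 family, whose yeast relative Mak21 works in the assembly of the large ribosomal subunit.

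The 5 models lie on 4 chromosomes, with coordinates as in the deposited table, counted from 1, and their genome build is not given in the sources that were used here. C/EBP beta (evm_TU_Chr9_946) spans chromosome 9, 28085979 to 28086896 on the minus strand, as 1 exon of 918 bases that holds coding sequence alone, so no untranslated region was annotated. C/EBP gamma (evm_TU_Chr9_1002) lies on the same chromosome and strand, 29356765 to 29364141, with 2 exons and a 3′ UTR of 2653 bases. C/EBP zeta (evm_TU_Chr2_652) spans chromosome 2, 20632283 to 20660556 on the minus strand, in 24 exons. Its 3′ end overlaps an enoyl-CoA delta isomerase model on the opposite strand, and the protocol names no strand-marking step, so reads there cannot be assigned to either. Jun (evm_TU_Chr7_941) spans chromosome 7, 32512422 to 32515602 on the plus strand, as 1 exon with 329 codons and a 3′ UTR of 2000 bases. Vertebrate Jun genes also lack introns. EGR1 (evm_TU_Chr17_279) spans chromosome 17, 9794634 to 9801161 on the minus strand, in 2 exons with 508 codons.

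All 5 models passed the filter on low values, which asked for at least 1 FPKM (fragment counts divided by model length and library size, so levels can be set side by side between genes) in at least 3 libraries and left 15615 models. By mean FPKM over the 12 libraries, C/EBP beta ranked 133 of all 26461 models with 469, and Jun ranked 175 with 298. C/EBP gamma followed with 18.1, EGR1 with 11.4 and C/EBP zeta with 4.47. Fragments behind 1 value ranged from 1085 to 18279 for C/EBP beta, from 4131 to 13569 for Jun, from 265 to 1122 for C/EBP gamma, from 92 to 1186 for EGR1 and from 62 to 406 for C/EBP zeta. The largest 95% counting error on a value was 3.05% for Jun and 24.9% for C/EBP zeta, and it covers counting error only.

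C/EBP beta was higher at 26 °C in every library. In the control it was at 148, 178 and 124 FPKM in replicates 1, 2 and 3, and in the low oxygen group at 240, 197 and 176. In the high temperature group it was at 421, 363 and 337, and in the combined group at 733, 2105 and 605. Every library at 26 °C lay above every library at 18 °C, which 0.64% of the 15615 genes tested also did. The combined group also lay wholly above the high temperature group, and the control and low oxygen groups overlapped only between 176 and 178. Group means were 150.2 ± 27.1 in the control, 204 ± 32.7 under low oxygen, 374 ± 43.2 at high temperature and 1148 ± 831 under both (SD, n = 3 each). Within the combined group, replicate 2 stood far above the other two.

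**Figure D1:**
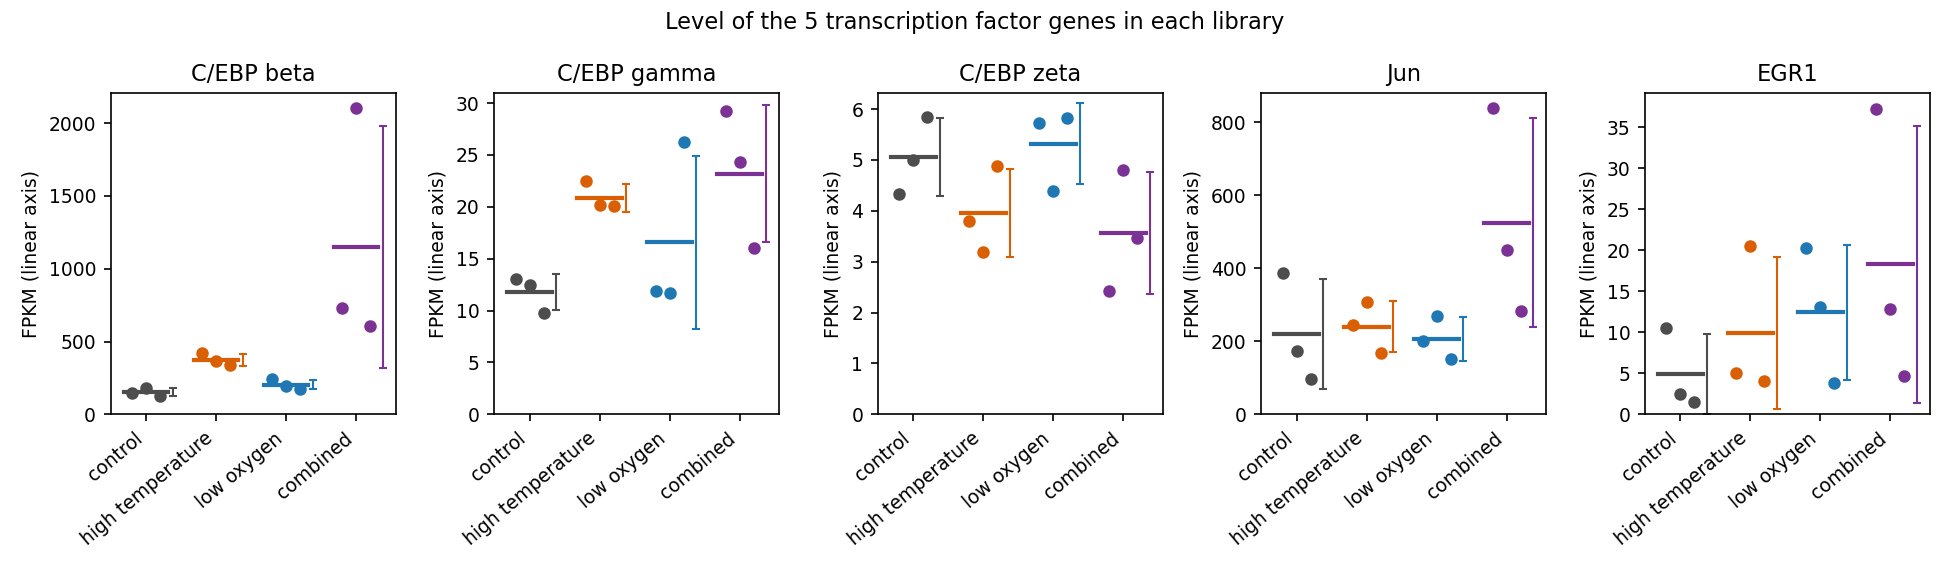
FPKM of each of the 5 genes (vertical axes, linear) in each of the 12 libraries, by group, with 3 points a group, the group mean as a bar and the SD as the line beside it, cut at 0 for EGR1 in the control. The 6 libraries at 26 °C stand above the 6 at 18 °C for C/EBP beta, from 337 against at most 240, while the groups overlap for EGR1 and C/EBP zeta.

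In the limma model over all tested genes, C/EBP beta rose in the combined group against the control by 2.71 on the log2(FPKM + 1) scale (95% interval 1.73 to 3.69, Benjamini-Hochberg adjusted p = 0.0148). It ranked 56 by p among all genes, of which 0.788% were called at adjusted p under 0.05. Over all groups together, 26 against 18 °C, it rose by 1.79 (interval 1.10 to 2.48, adjusted p = 0.0266), where 0.455% of genes were called. Against the low oxygen group the combined group differed by 2.27 (interval 1.29 to 3.25), which missed the threshold at adjusted p = 0.0571, and 0.423% of genes passed it.

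The other comparisons of C/EBP beta did not pass the threshold. High temperature alone differed from the control by 1.32 (interval 0.34 to 2.30, adjusted p = 0.542), with 0.0704% of genes called. Low oxygen alone differed by 0.44 (interval -0.54 to 1.42, adjusted p = 0.878), with 0.0064% called. The combined group differed from high temperature alone by 1.39 (interval 0.41 to 2.37, adjusted p = 0.521), with 0.218% called, and the oxygen main effect was 0.92 (adjusted p = 0.567), with 0.0704% called. The interaction, which asks whether warming acted more strongly in water low in oxygen, was 0.95 (interval -0.44 to 2.33, adjusted p = 0.779), with 0.0512% of genes called. The effect of warming was therefore not shown to differ between the oxygen levels as named, and an interval this wide holds both no difference and a difference as large as the effect of high temperature alone.

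These calls depend on how libraries are scaled. Combined replicates 1 and 3 stand apart: the library size behind their deposited FPKM was 0.529 and 0.526 of their fragment total, against 0.935 to 1.58 in the other 10 libraries. With equal fragment totals, C/EBP beta was at 388, 1967 and 319 in the combined group, 400, 389 and 533 at high temperature, 309, 260 and 202 under low oxygen and 145, 226 and 170 in the control. Every library at 26 °C still lay above every one at 18 °C, but the combined group no longer stood above high temperature alone. The combined against control difference became 1.81 with adjusted p = 0.118, and the temperature main effect 1.30 with adjusted p = 0.190, so neither was called. The same rescaling moved the median of all genes in combined against control from -0.05 to -0.63. Relative to that median, C/EBP beta stood at 2.76 with the deposited scaling and at 2.44 with equal totals. Of all genes, 93 were called higher and 30 lower in combined against control with the deposited scaling, and 35 higher and 63 lower with equal totals.

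Single libraries also decided the calls. The combined against control call was lost without control replicate 1 (adjusted p = 0.0524), without control replicate 3 (0.0843) or without combined replicate 1 (0.0593), and was kept without combined replicate 2, the highest library, at 2.16 (adjusted p = 0.0188). It was also lost when the model held only the 2 groups compared (adjusted p = 0.168). The temperature main effect was still called when any 1 of the 3 combined libraries was left out, and was lost when any 1 of the other 9 was. Where a call was lost in this way the difference stayed at 2.58 to 2.92 in combined against control and at 1.73 to 1.86 in the temperature main effect, with adjusted p of 0.0524 to 0.0843 and 0.0545 to 0.0895. Leaving out both combined replicates 1 and 3, a choice made after the library sizes were seen, gave 3.82 in combined against control with adjusted p = 0.00363, where the lone combined library is assumed to vary like the other groups. Over 22 alternatives the combined against control difference ranged from 1.81 to 3.82, and 17 of them called it.

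**Figure D2:**
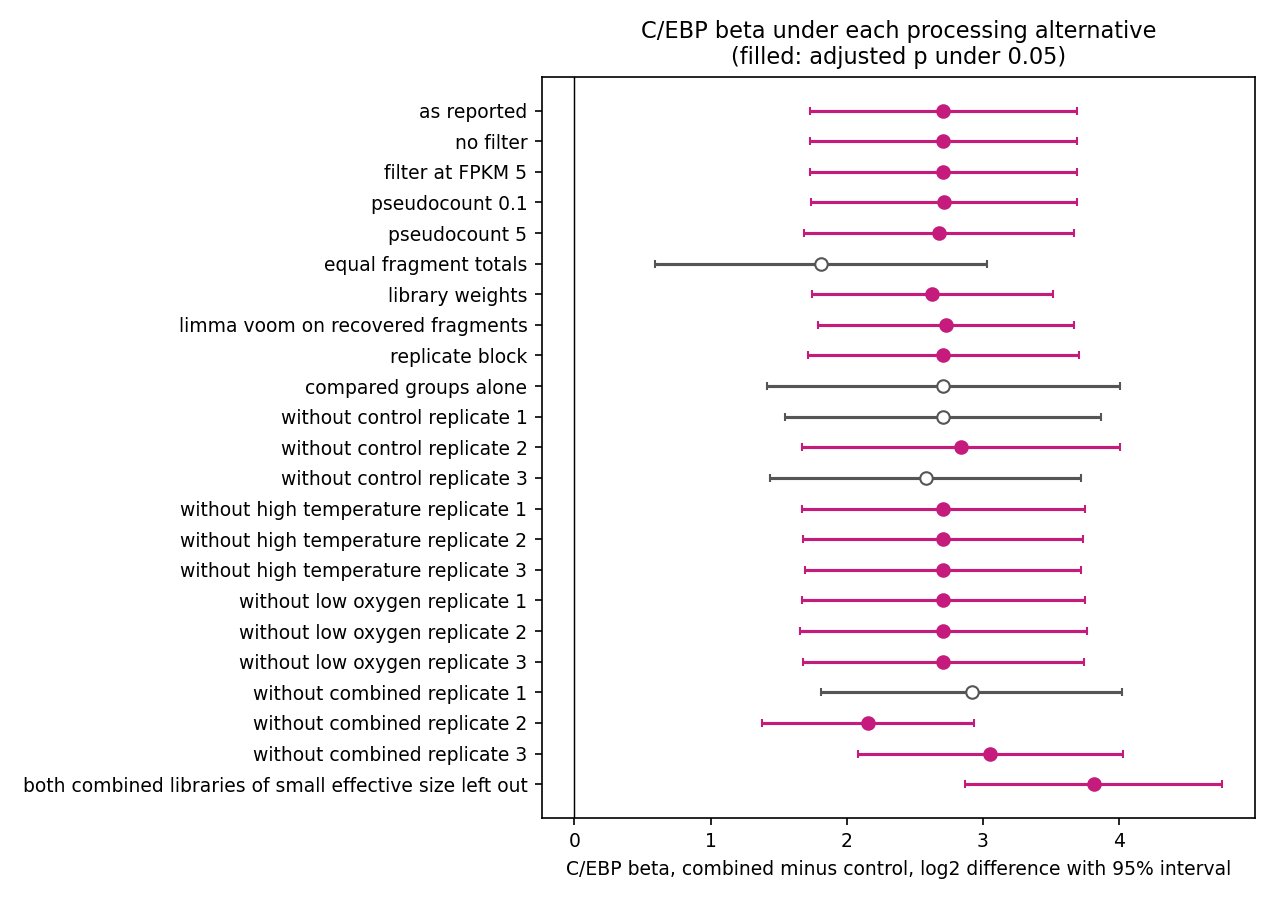
Log2 difference of C/EBP beta, combined minus control, as reported and under 22 alternatives (1 line each, with its 95% interval; filled where adjusted p was under 0.05). Values run from 1.81 with equal fragment totals to 3.82 with combined replicates 1 and 3 left out, all above 0.

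C/EBP gamma, the partner without an activation domain, stayed between 9.77 and 29.2 FPKM. Control libraries were at 13.1, 12.5 and 9.77 FPKM and those of the high temperature group at 22.4, 20.1 and 20.1, so these groups did not overlap. Low oxygen gave 11.8, 11.7 and 26.2, and the combined group 29.2, 24.4 and 16.1. The high temperature and combined groups both stood above the control in every library, while low oxygen replicate 3 alone lifted its group. Its difference from the control was 0.78 at high temperature (adjusted p = 0.770) and 0.89 in the combined group (interval 0.06 to 1.72, adjusted p = 0.331), and it was called in 0 of 8 contrasts. With equal totals the combined against control difference was 0.05. Combined replicate 3 then stood at 8.46, below the controls at 12.8, 15.9 and 13.4, so the combined group no longer lay above the control.

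C/EBP zeta, the nucleolar protein, had the lowest mean of the 5 over all 12 libraries, although EGR1 was lower in 2 of the 3 controls. It was at 4.32, 4.998 and 5.85 FPKM among controls, 3.79, 3.19 and 4.89 at high temperature, 5.73, 4.396 and 5.82 under low oxygen and 2.41, 4.80 and 3.46 in the combined group. With the deposited scaling every pair of groups overlapped. The temperature main effect was -0.40 (adjusted p = 0.521) and combined against control -0.44 (interval -1.17 to 0.30, adjusted p = 0.593), so it was the only one of the 5 with a negative value in both, and neither passed the test. With equal totals the combined libraries stood at 1.28, 4.49 and 1.82, all below low oxygen at 7.39, 5.79 and 6.71. How many genes do so was not computed. Combined against control was then -1.09 (adjusted p = 0.173 with limma), or -0.46 relative to the median of all genes.

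Jun, the AP-1 subunit, was abundant in the control group too and uneven within groups. In the control it was at 388, 174 and 97.6 FPKM, so libraries of the same group differed widely. It was at 245, 309 and 168 at high temperature, 200.49, 270 and 151 under low oxygen, and 841, 451 and 283 in the combined group. The combined group lay wholly above the low oxygen group and overlapped both others. With equal totals it overlapped the low oxygen group too, since combined replicate 3 stood at 149 and low oxygen replicates at 258, 356 and 174. Means were 219.8 ± 151, 240.5 ± 70.7, 207 ± 59.9 and 525 ± 286 in the order control, high temperature, low oxygen and combined (SD, n = 3 each).

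Jun passed the threshold in none of the 8 contrasts. The combined group differed from the control by 1.34 (interval 0.15 to 2.52, unadjusted p = 0.0301, adjusted p = 0.308 with limma) and from the low oxygen group by 1.23 (adjusted p = 0.392). High temperature alone gave 0.31 (adjusted p = 0.983) and low oxygen alone 0.10 (adjusted p = 0.980). With equal totals the combined against control difference was 0.44, or 1.07 relative to the median of all genes.

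EGR1, the zinc finger factor, spread most within groups. It was at 10.6, 2.52 and 1.53 FPKM among controls, 5.06, 20.6 and 4.005 at high temperature, 20.2, 13.1 and 3.87 under low oxygen and 37.2, 12.9 and 4.70 in the combined group. Every pair of groups overlapped, and within the combined group alone values ran from 4.70 to 37.2. Its mean was 4.87 ± 4.96 in the control and 18.3 ± 16.9 in the combined group (SD, n = 3 each). The difference was 1.62 with an interval of -0.19 to 3.43 (adjusted p = 0.415, limma), and low oxygen alone gave 1.27 (interval -0.54 to 3.09, adjusted p = 0.834). Leaving out 1 library moved these to between 0.92 and 2.29, and to between 0.82 and 1.93. Jun and EGR1 had their highest value in the same library in the control, high temperature and combined groups. Their lowest value was in replicate 3 in all 4 groups. The lowest library was not particular to that pair. C/EBP beta was lowest in replicate 3 in the same 4 groups, and C/EBP gamma in 3 of them. These ranks of the lowest library are those of the deposited scaling. With equal totals C/EBP beta was lowest in control replicate 1 (145) and high temperature replicate 2 (389). Jun (232) and EGR1 (4.80) were then lowest in high temperature replicate 1.

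**Figure D3:**
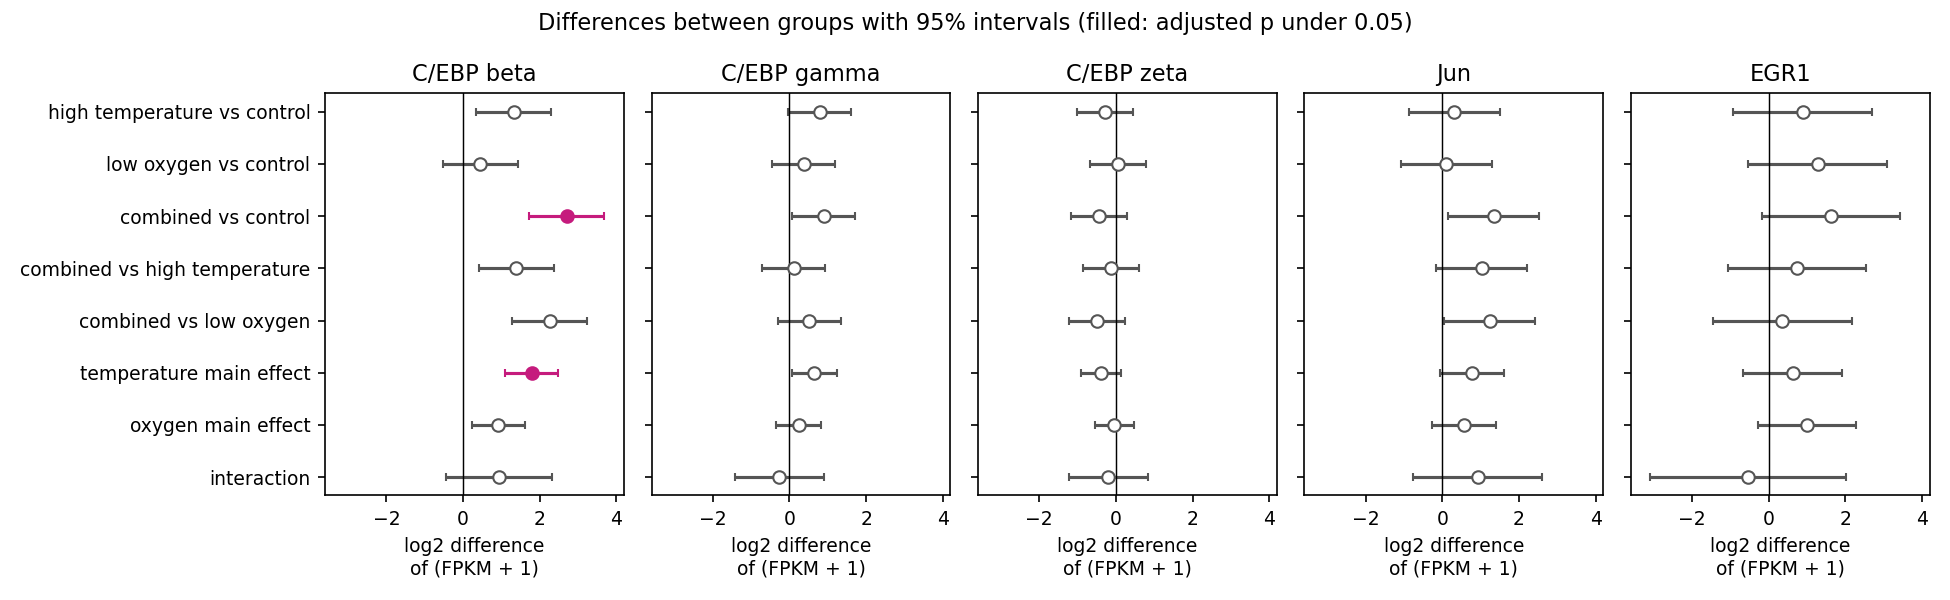
Log2 difference on the log2(FPKM + 1) scale, with its 95% interval, for each of the 5 genes in each of the 8 contrasts. Filled points passed adjusted p under 0.05: C/EBP beta in combined against control at 2.71 and in the temperature main effect at 1.79, and no other.

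Over the 5 genes together, 1 was called in combined against control and 1 in the temperature main effect, C/EBP beta both times, and 0 in the other 6 contrasts. At an unadjusted p under 0.05, limma marked 3 of the 5 in combined against control, 2 in the temperature main effect and in combined against low oxygen, 1 in high temperature against control, in the oxygen main effect and in combined against high temperature, and 0 in low oxygen against control and the interaction. Over all genes that share was 13.8% in combined against control, 11.5% in the temperature main effect, 12.4% in combined against low oxygen and 6.30% to 7.33% in the others. The voom variant of limma on recovered fragments called C/EBP beta in the same contrasts and also in combined against low oxygen (adjusted p = 0.0497). The median difference of the 5 was 1.34 in combined against control, beside -0.05 over all genes, and 4 of 5 were above 0. Every library of the first group lay above every library of the second for 2 of the 5 in high temperature against control (C/EBP beta and gamma), where 6.87% of all genes did. This held for 0 in low oxygen against control (7.58% of genes), for 2 in combined against control (C/EBP beta and gamma; 6.36%), for 1 in combined against high temperature (C/EBP beta; 4.97%) and for 2 in combined against low oxygen (C/EBP beta and Jun; 7.71%). With equal totals it held for C/EBP beta alone in combined against control and in combined against low oxygen. In combined against high temperature it then held for 0. The share of all genes was not computed with equal totals. Contrasts that share the control or the combined group share those libraries and are no separate evidence.

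A ratio of 2 genes within a library does not depend on how libraries are scaled, so C/EBP beta was set against each of the other 4. These pairs were chosen after the values of C/EBP beta had been seen. The ratio to C/EBP gamma was 12.8 ± 1.46 in the control, 17.9 ± 0.995 at high temperature, 14.6 ± 7.06 under low oxygen and 49.7 ± 32.4 in the combined group (SD, n = 3 each). From 18 to 26 °C it differed by 1.10 on the log2 scale (exact two-sided permutation of the temperature label within each oxygen label, p = 0.005, the smallest the design allows; 0.01 after Benjamini-Hochberg adjustment over 4 ratios). The ratio to C/EBP zeta differed by 2.29 (exact permutation p = 0.005, adjusted 0.01), with no overlap between temperatures. The ratio to Jun differed by 1.02 (exact permutation p = 0.045, adjusted 0.06) and that to EGR1 by 1.05 (exact permutation p = 0.205, adjusted 0.205). Relative to C/EBP gamma and to C/EBP zeta, C/EBP beta had a higher mean ratio at 26 °C, and relative to Jun and EGR1 the difference missed the threshold. C/EBP beta itself was already seen to be higher in every library at 26 °C. A small p was therefore likely against any gene that changed little, and these p-values are no separate evidence. The adjustment over 4 ratios does not cover that choice. C/EBP zeta held only 62 and 87 fragments in combined replicates 1 and 3, and its model overlaps another.

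**Figure D4:**
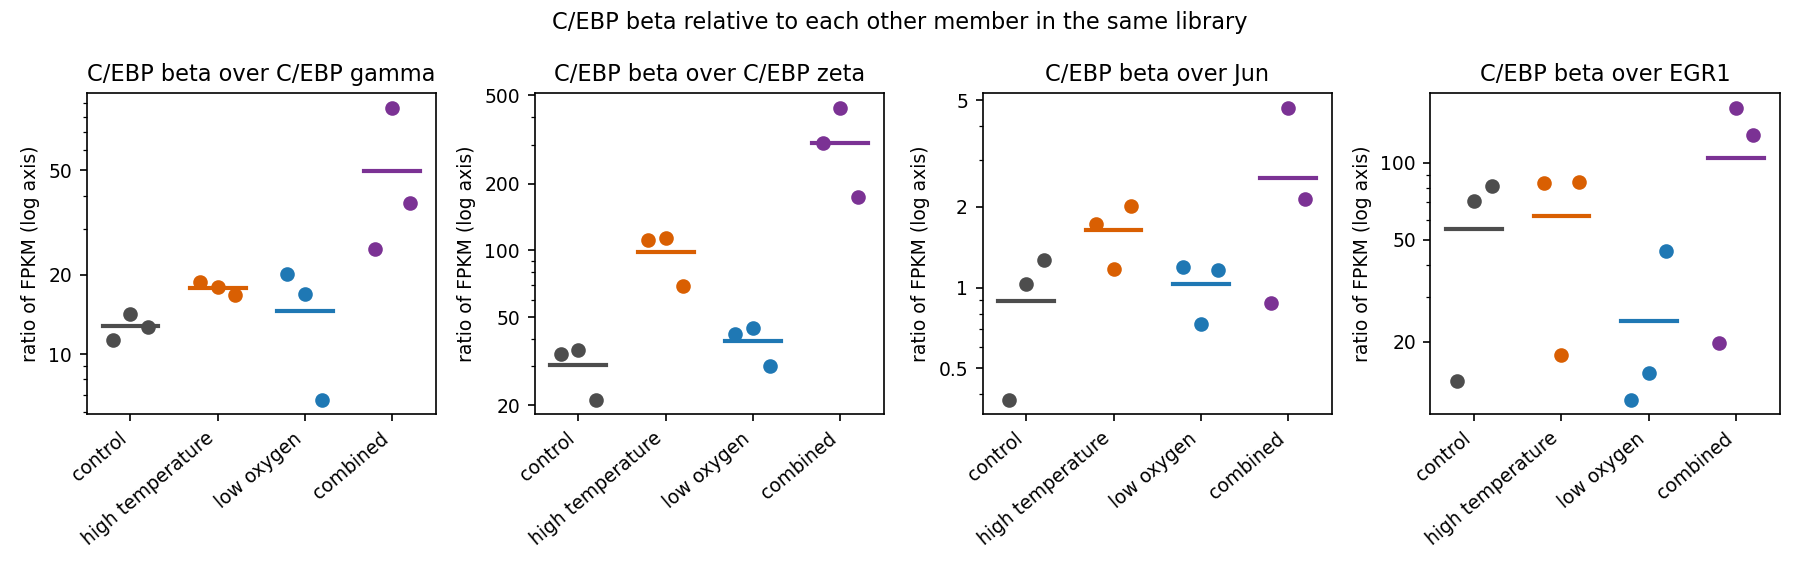
FPKM of C/EBP beta divided by that of each of the other 4 genes in the same library (log axis), by group, with 3 libraries each and the group mean as a bar. For C/EBP zeta the 6 libraries at 26 °C stand clear of the 6 at 18 °C, and for EGR1 the groups overlap.

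The deposited annotation puts 22 models in the bZIP class, of which 19 were not among the 5, and 17 of these were tested. In combined against control 1 was called, higher, 7 had an unadjusted p under 0.05 and 12 were above 0, with a median of 0.53. Over all genes 13.8% had an unadjusted p under 0.05 and 47.2% were above 0 in this contrast, which also holds beside the counts of the lists below. The called model has no Swiss-Prot name (evm_TU_Chr2_1095, chromosome 2, 32969036 to 32976198, plus strand). It stood at 17.1, 4.16 and 2.33 FPKM in control libraries, 20.0, 12.99 and 12.6 at high temperature, 14.3, 10.2 and 11.95 under low oxygen, and 169, 327 and 100.8 in the combined group. All 3 combined libraries stood far above the other 9, the next highest being 20.0. The share of all genes with such a separation was not computed. It rose by 4.72 ± 0.59 (SE; adjusted p = 0.00171), was also called against high temperature alone (3.49, adjusted p = 0.0306), against low oxygen alone (3.78, adjusted p = 0.0126) and in the temperature main effect (2.50, adjusted p = 0.0157), and was called in combined against control under all 22 alternatives. The call against high temperature alone was lost in 14 alternatives. Its interaction was 2.55 (interval 0.74 to 4.35) and did not pass at adjusted p = 0.647.

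Its neighbour on the same strand, 22531 bases before it, is the Fos relative named after the viral protein v-Fos/v-Fox (evm_TU_Chr2_1094, chromosome 2, 32939313 to 32946504). Fos proteins pair with Jun in AP-1. This model was at 47.3, 26.5 and 16.9 FPKM among controls, 26.7, 36.5 and 16.2 at high temperature, 32.2, 48.1 and 37.4 under low oxygen, and 232, 159 and 81.0 in the combined group. With the deposited scaling the combined libraries lay above all the others, and the other 3 groups overlapped. The separation does not hold with equal fragment totals, where combined replicate 3 falls below low oxygen replicate 2. The library size behind the deposited FPKM was 0.526 of the fragment total in the first and 1.32 in the second. How common this is among all genes was not computed, and the model was named after its values were seen. The difference from the control was 2.33 ± 0.49 (SE), which missed the threshold at adjusted p = 0.0514. It was called with a filter at FPKM 5 (adjusted p = 0.0442), with library weights (0.0219), with a replicate block (0.0393) and without combined replicate 3 (0.0216), and its adjusted p was 0.0503 to 0.240 under the other 18 alternatives, among them 0.131 with equal totals.

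NFE2L1, an endoplasmic reticulum membrane sensor of the NF-E2-related group, was at 48.2 ± 21.8 FPKM in the control, 96.7 ± 9.74 at high temperature, 57.5 ± 2.71 under low oxygen and 187 ± 81.7 in the combined group (SD, n = 3 each). Its difference in combined against control was 1.95 (adjusted p = 0.0697). ATF-2, a partner of Jun, was at 5.62 ± 3.00 in the control and 46.3 ± 29.9 in the combined group, a difference of 2.64 ± 0.56 (SE; adjusted p = 0.0540). The Fos relative, ATF-2 and NFE2L1 all had higher means in the combined group, and none passed the test as reported. NFIL3, a bZIP repressor in mammals (evm_TU_Chr7_42), went the other way. It was at 6.03, 7.27 and 43.5 FPKM among controls and at 0.221 to 2.36 in the other 9 libraries, so every control lay above all of them. The share of all genes that do so was not computed. Its difference in combined against control was -2.46 (adjusted p = 0.0900), in high temperature against control -3.34 (adjusted p = 0.0694) and in low oxygen against control -3.41 (adjusted p = 0.14), and none of these passed. The 2 untested models of the class were unnamed, with at most 2.21 FPKM in any library.

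Genes around these factors were taken from 6 lists of Swiss-Prot names. Upstream, 0 of 19 tested MAP kinase cascade members were called in combined against control, 0 had an unadjusted p under 0.05 and the median was -0.13; the smallest p was that of MAP kinase kinase 1, at 7.34 FPKM in the control and 3.70 in the combined group (adjusted p = 0.389). Of 10 MAP kinase phosphatases, which switch that cascade off, 0 were called and 3 had an unadjusted p under 0.05; the smallest p was that of DUSP10, which in mammals inactivates p38 and JNK, at 19.2 FPKM in the control and 90.4 in the combined group (log2 difference 2.002, adjusted p = 0.0797). Of 11 other named bZIP factors 0 were called and 3 had an unadjusted p under 0.05, with ATF-2 at the smallest p. Of 15 other early response genes 0 were called, 5 had an unadjusted p under 0.05 and the median was 0.45; KLF2, a zinc finger factor, was at 53.9 and 253 FPKM (2.21, adjusted p = 0.0549).

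Of the 20 tested NRF2 partners and textbook targets, 7 were above 0 in combined against control, with a median of -0.29. An unadjusted p under 0.05 was reached by 3 of them. In that contrast 1 of the 20 was called, beside 0.788% of all genes. It was Sequestosome-1, the autophagy receptor p62, which was at 63.6 FPKM in the control and 1365 in the combined group, where the libraries stood at 504, 3250 and 342 (log2 difference 3.71, adjusted p = 0.0215). With equal totals its adjusted p was 0.098, and the call was also lost without any 1 of the control libraries or combined replicate 1, with no filter on low values, and with the compared groups alone. The antioxidant enzymes of that list did not pass. Of 12 genes of the ATF4 branch 0 were called, 0 had an unadjusted p under 0.05 and 9 were above 0, with a median of 0.55; the smallest p was that of a CHAC1-type glutathione-degrading enzyme (evm_TU_Chr2_889; 1.52, adjusted p = 0.366). In each contrast other than combined against control, 0 genes of any of the 6 lists were called.

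**Figure D5:**
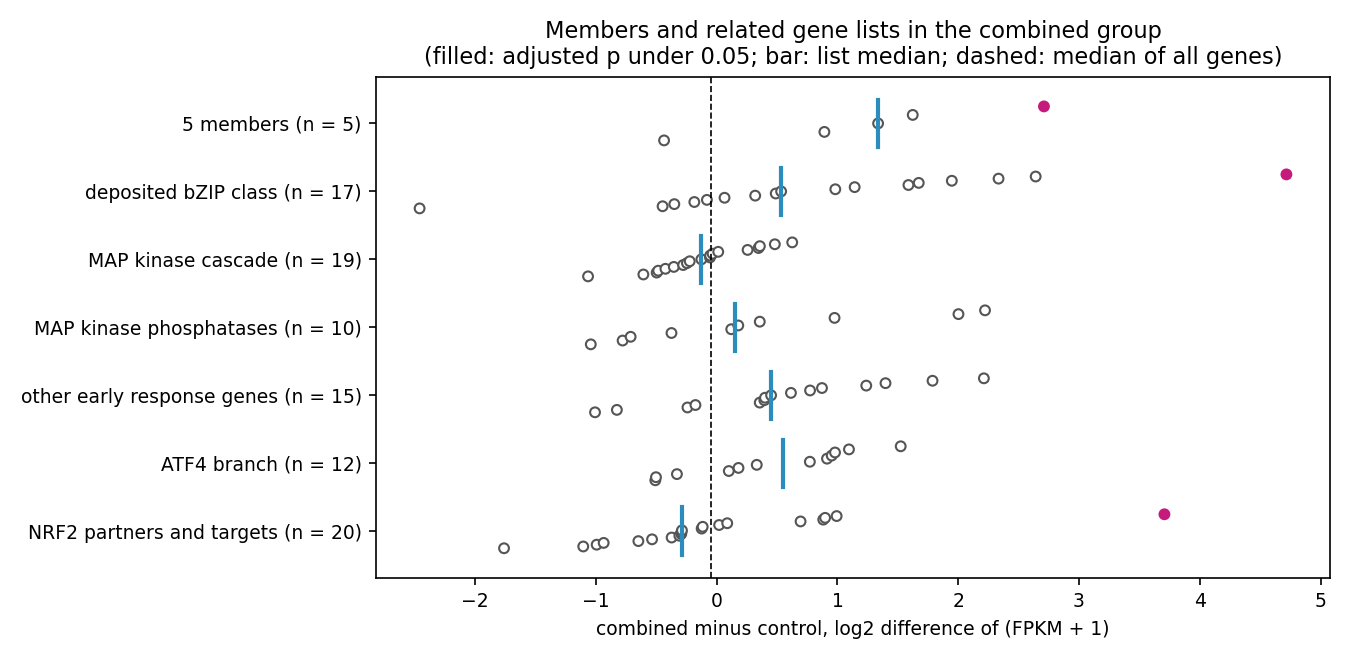
Log2 difference in combined against control for the 5 genes, the tested models of the deposited bZIP class and 5 of the lists, 1 point a gene, with the list median as a bar and the median of all genes dashed. The list of other named bZIP factors is not drawn, and most but not all of its models stand in the class. Filled points passed adjusted p under 0.05: C/EBP beta at 2.71, Sequestosome-1 at 3.71 and the unnamed bZIP model at 4.72.

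As a description, the genes whose log2(FPKM + 1) ran most like that of C/EBP beta over the 12 libraries were DUSP10 (Pearson r = 0.951), Sequestosome-1 (r = 0.946) and a heat shock protein of the HSP110 family (evm_TU_Chr13_519, r = 0.946). For Jun they were a Tie-2-type receptor kinase (r = 0.953), CCR4-NOT subunit 4 (r = 0.945) and DUSP16 (r = 0.944), and for EGR1 a BCAR3 homologue (r = 0.900), Filamin-A (r = 0.843) and a plasma kallikrein-type model (r = 0.836). The points of each correlation share their library and its scaling. C/EBP beta, DUSP10 and Sequestosome-1 all had their highest value in combined replicate 2, at 2105, 166 and 3250 FPKM. The r was not computed without that library.

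Libraries held 8146906 to 10855050 recovered fragments, and the 10 most abundant models took 19.8% to 44.0% of them. The labelled tissue was checked against digestive enzymes, of which 41 of 42 models were detected, with a summed FPKM per library of 343 to 2573 among controls, 134 to 793 among combined libraries, 99.8 to 398 with warming alone and 152 to 386 with low oxygen alone; Carboxypeptidase A5 was the 1 listed at 0. Of the other marker lists, 4 had a summed deposited FPKM in the combined group above every control library. The library size behind these FPKM was 0.529 and 0.526 of the fragment total in combined replicates 1 and 3. In control replicates 1, 2 and 3 it was 0.979, 1.27 and 1.37. Such scaling raises the sums of these combined libraries, and the lists were not summed again with equal totals. Muscle (7 models, all detected) stood at 261 to 380 against 118 to 239, and connective tissue (33 models, 3 tenascins listed at 0) at 1618 to 2575 against 1020 to 1334. Ciliated cells (90 models) stood at 299 to 1687 against 147 to 298, and at 344 to 536 at high temperature. Coelomocytes, the immune cells of the body cavity (30 models, 1 at 0), stood at 636 to 3780 against 429 to 542. A Complement C3 fragment, the most abundant model of that list, alone ran from 86.3 to 2386 over the 12 libraries. Of the 18 coelomocyte models tested, 10 were above 0 in combined against control, with a median of 0.12, so the list did not rise as a whole. By the same count, with the deposited scaling, 74 of 78 ciliated cell models were above 0 (median 0.94). So were 22 of 26 of connective tissue (0.62), 6 of 7 of muscle (0.86) and 12 of 19 of neurons (0.12). Only 6 of 26 digestive enzymes (-0.53) and 3 of 10 germ line models (-0.29) were, beside 47.2% of all genes. Neurons (27 models, 2 at 0) and germ line (11 models, Nanos at 0) overlapped with the control. The part of any of these in the result for C/EBP beta was not tested, and in whole tissue more cells of a type and more RNA per cell cannot be told apart.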

How the data were processed

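Intestine RNA of 12 animals was measured in 4 groups of 3 libraries, as named by the labels. Per the file headers, the authors deposited 1 table of FPKM per gene model; the sources used here do not give the aligner, counter or build. Multiplying FPKM by model length and by a library size recovered from the steps between low values gave whole fragments for 100% of values within 1e-06 of a fragment, 8146906 to 10855050 a library. The 15615 models that reached 1 FPKM in 3 or more libraries were tested as log2(FPKM + 1), with a mean per group over all 12 libraries, in limma 3.58.1 (R 4.3.3, trend in the prior variance), two-sided, with Benjamini-Hochberg adjustment over all tested genes and a threshold of 0.05. A fold on this scale understates the change of low genes. The procedure was also run on simulated data, in which genes varied independently and library sizes were known. That run does not test the scaling of libraries, on which the calls depend. Ratios within a library were tested by exact permutation, and tables and figures were made in Python 3.11.15 with pandas 2.3.3, numpy 2.4.6 and matplotlib 3.10.9.

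The 5 genes and all lists were chosen with earlier results of these data known. Named genes were all 5, and from each list those with adjusted p under 0.05, or else the 1 with the smallest p in combined against control. The v-Fos/v-Fox, NFE2L1, ATF-2 and NFIL3 models of the bZIP class were named after their values were seen. Likeness was measured for the most abundant gene of each family found, with the 3 named genes of highest r. Alternatives were other filters and pseudocounts, equal fragment totals, library weights, voom on recovered fragments, the compared groups alone, a replicate block and leaving out each library. No sequence is shown, because no reference sequence was used here.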

Additional observations from a re-analysis of the deposited data

How the results depend on the processing

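Of 865 alternative values for the 40 differences (5 genes in 8 contrasts), 819 kept their direction and their side of the threshold, 16 fell short of a threshold passed in the report, 5 newly passed it, and 25 changed sign. No value that changed sign was called, and the causes were not tested. The number of the 5 genes called in combined against control was 0 with equal fragment totals or with the compared groups alone, and 0 to 1 when 1 library was left out. In the temperature main effect it was 0 with no filter or with equal totals, and 0 to 1 when 1 library was left out. In combined against low oxygen it was 1 with a filter at FPKM 5, with library weights, with voom or with both combined replicates 1 and 3 left out, and 0 to 1 when 1 library was left out. With equal totals, C/EBP gamma changed sign in the oxygen main effect (-0.14), against high temperature (-0.72) and against low oxygen (-0.39), EGR1 against high temperature (-0.022) and against low oxygen (-0.51), and Jun in the interaction (-0.020). Library weights put the interaction of C/EBP gamma at 0.0098. With both combined replicates 1 and 3 left out, a choice made after seeing the data, C/EBP zeta gave 0.15 in the oxygen main effect, 0.24 against high temperature and 0.18 in the interaction. When 1 library was left out, C/EBP gamma ran from -0.071 to 0.34 against high temperature and from -0.45 to 0.10 in the interaction. C/EBP zeta ran from -0.029 to 0.17 in low oxygen against control, from -0.14 to 0.056 in the oxygen main effect and from -0.33 to 0.052 against high temperature. Jun ran from -0.15 to 0.84 in high temperature against control and from -0.36 to 0.63 in low oxygen against control. EGR1 ran from -0.35 to 1.02 against low oxygen and from -1.24 to 0.13 in the interaction. Over all genes, deviations of samples with the same replicate number had r from -0.17 to 0.18 over 18 pairs. Pairs of different number had r from -0.37 to 0.38 over 36 pairs. With 3 libraries a group these values cannot settle whether the numbers pair samples. With the deposited scaling C/EBP beta, Jun and EGR1 were each lowest in replicate 3 in all 4 groups. With equal totals this held for none of them. With a replicate block the number of the 5 genes called was unchanged in each contrast, and C/EBP beta stood at 2.71 in combined against control (adjusted p = 0.0265). Over all genes, combined against control gave 123 calls in the report, 80 with no filter, 74 with a pseudocount of 0.1, 57 with voom, 35 with the compared groups alone, 89 with the replicate block, 63 with both combined replicates 1 and 3 left out, and 27 to 182 when 1 library was left out. Library weights raised the calls from 11 to 205 in high temperature against control and from 1 to 185 in low oxygen against control.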
